A study of Saccharomyces cerevisiae with 6 samples.

Results

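The Hsp70 and Hsp110 chaperones of budding yeast were followed here through 10 genes, chosen by name: SSA1, SSA2, SSA3, SSA4, SSB1, SSB2, SSE1, SSE2, SSC1 and KAR2. All 10 were found among the 5475 gene rows of the deposited table and all 10 passed the filter on low values, as did 5279 rows in all. Transcripts were counted by sequencing the 3′ ends of polyadenylated RNA from Saccharomyces cerevisiae labelled as BY4741, a MATa haploid strain, with 2 samples in each of 3 groups. The groups were untreated wild type (WT), a bud27 deletion labelled with the same background (the mutant), and WT kept overnight with rapamycin at 50 ng/ml. All cultures grew in YPD, a rich glucose medium, at 30 °C unless specified otherwise, and were harvested at an optical density of about 0.8. Bud27 belongs to the prefoldin family, whose best known members help newly made proteins fold, and rapamycin inhibits TOR complex 1, a kinase that couples growth to nutrients. How the deletion was made and whether it is more than 1 clone is not given in the sources used here, and nothing says that the samples of a group were separate cultures, so p-values reflect no more than how these samples vary, and that variation may be technical.

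The WT and rapamycin libraries held 18153459 to 28774941 reads and the mutant libraries 3212848 and 5088194. Levels are given as scaled CPM, that is, the deposited CPM, reads relative to library depth, corrected with TMM factors for library composition. A read stands for the end of 1 transcript, so levels should not grow with gene length. Comparisons of levels between genes are rough all the same. From 18.8% to 31.2% of reads fell outside the listed rows, some rows join genes, and how reads shared by near-identical copies were counted is not given. A gene passed the test when its limma adjusted p lay below 0.05 over the 5279 rows, and fold changes were taken between values of log2(scaled CPM + 1), which understates the changes of rare transcripts. The deposited CPM scale, without TMM, lifts the median over all rows by 0.40 log2 units in the mutant and by 0.55 with rapamycin. Directions of family members that depend on it are named below, and medians of gene lists can also change sign with it. BUD27 itself was read 6 and 9 times in the mutant, against 268 and 246 times in WT and 326 and 234 times with rapamycin. TRP1, a tryptophan synthesis gene, was read 5 and 8 times there against 738 and 626 in WT, and FRS2, next to BUD27, fell by 2.17 log2 units (SE 0.25, adjusted p = 0.00044), so the mutant samples may differ from the labelled BY4741 in more than bud27, and their differences cannot be assigned to Bud27 alone. The a-specific MFA1 and STE2 lay between 176 and 1940 scaled CPM in every library, while the alpha-specific MF(ALPHA)1 had at most 1 read a library, MF(ALPHA)2 at most 7 and STE3 at most 221. In RNA from whole cultures, fewer cells expressing a gene and less of its RNA per cell cannot be told apart.

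Hsp70 proteins bind short hydrophobic stretches of unfolded polypeptides and release them in a cycle driven by ATP. J-domain proteins deliver the substrate and stimulate ATP hydrolysis, and nucleotide exchange factors, among them the Hsp110 proteins, then replace ADP by ATP. Ssa1 to Ssa4 serve the cytosol and nucleus. Of these SSA2 is known as the constitutive gene, SSA1 as both basal and heat-inducible, and SSA3 and SSA4 as stress-inducible. Ssb1 and Ssb2 sit on ribosomes and receive nascent chains, Sse1 and Sse2 are the Hsp110 exchange factors of the cytosol, Ssc1 is the main Hsp70 of the mitochondrial matrix, and Kar2 is that of the endoplasmic reticulum (ER) lumen. Hsf1, the heat shock factor, binds inverted repeats of GAA, and the stress factors Msn2 and Msn4 bind the stress response element.

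The family holds near-identical copies, which bears on every value of these genes, because the sources used here do not say how reads that map to several places were counted. In the R64 reference, the build the submitters' processing notes name, the coding sequences of SSA1 and SSA2 were 96.4% identical and those of SSB1 and SSB2 97.4%, with exact shared runs of up to 383 and 563 bases. SSA3 and SSA4 were 76.6% identical, and SSE1 and SSE2 71.8%. The difference grows towards the 3′ end, where these libraries read. Over the last 300 coding bases SSA1 and SSA2 were 86.4% identical with a longest shared run of 38 bases, and SSB1 and SSB2 96.0% with a run of 53. Over the 300 genomic bases after the stop codon identity dropped to 49.8% and 50.0%, with no shared run above 12 bases. The last 90 coding bases of both pairs, read 5′ to 3′ up to the stop codon, show what a read in the coding end could be told apart by, with capitals at the positions that differ, 12 in the first pair and 3 in the second.
SSA1 (chrI:139503-139592, minus strand): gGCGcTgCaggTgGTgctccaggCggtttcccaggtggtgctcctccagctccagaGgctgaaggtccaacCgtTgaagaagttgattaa
SSA2 (chrXII:95566-95655, minus strand): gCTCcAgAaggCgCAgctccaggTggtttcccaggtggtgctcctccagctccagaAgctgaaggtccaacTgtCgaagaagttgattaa
SSB1 (chrIV:45817-45906, plus strand): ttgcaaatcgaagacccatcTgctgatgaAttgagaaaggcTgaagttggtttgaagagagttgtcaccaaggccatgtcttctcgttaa
SSB2 (chrXIV:253811-253900, plus strand): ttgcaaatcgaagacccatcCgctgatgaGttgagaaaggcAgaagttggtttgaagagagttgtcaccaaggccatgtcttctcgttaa
No other row of the table, CUTs and SUTs (unstable and unannotated transcripts) included, held the reads of a member within 0.1 log2 units in every library. SSA3 shares its row with AAR2, a splicing factor gene that lies 273 bases upstream of SSA3 on the same strand, so the level given for SSA3 is that of both genes together.

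The SSA genes moved in opposite directions with rapamycin, and those that passed in the mutant all fell. SSA2 (YLL024C, chromosome XII, 95566 to 97485, minus strand) was the most abundant of them in every library. It stood at 3880 and 3390 scaled CPM in the WT samples, at 460 and 857 in the mutant and at 1460 and 1690 with rapamycin. The 3 groups did not overlap, and both mutant samples lay lowest. In the mutant SSA2 fell by 2.53 on the log2 scale (SE 0.29, adjusted p = 0.00038), the fold change with rank 40 from the lowest among the 5279 rows. With rapamycin it fell by 1.21 (SE 0.29, adjusted p = 0.0099). The fall with rapamycin did not pass on the deposited CPM scale (-0.60, adjusted p = 0.051) or without WT replicate 1 (adjusted p = 0.089) or replicate 2 (0.059).

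SSA1 (YAL005C, chromosome I, 139503 to 141431, minus strand) had 255 and 181 scaled CPM in WT, 76.3 and 146 in the mutant, and 507 and 535 with rapamycin. Both rapamycin samples lay above, and both mutant samples below, every WT sample. In deposited CPM mutant replicate 2 (147) was not below WT replicate 2 (146). Its rise with rapamycin was 1.27 on the log2 scale (SE 0.29, adjusted p = 0.0082), a ratio of means of 2.39, and its change in the mutant was -1.02 (SE 0.29, adjusted p = 0.022). The mutant samples differed from each other beyond counting error, with 95% counting intervals of 67.5 to 85.9 and 135 to 157 scaled CPM. The fall in the mutant did not pass without WT replicate 1 (adjusted p = 0.17) or 2 (0.058), without mutant replicate 1 (-0.52, adjusted p = 0.074) or on the deposited scale (-0.58, adjusted p = 0.07), and the rise with rapamycin did not pass without WT replicate 2 (adjusted p = 0.092).

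SSA4 (YER103W, chromosome V, 364589 to 366517, plus strand) was the rarest member in WT, at 8.34 and 7.53 scaled CPM. It stood at 91.7 and 85.0 with rapamycin, 11.1 times the WT mean, and at 4.72 and 2.53 in the mutant. SSA4 rose by 3.32 with rapamycin (SE 0.23, adjusted p = 3.3e-05), the fold change with rank 33 from the highest of all rows tested. In the mutant it fell by 0.99 (SE 0.23, adjusted p = 0.0095), a value resting on 17 and 13 reads, and the counting interval of mutant replicate 1, 2.75 to 7.55 scaled CPM, reaches into that of WT replicate 2, 6.19 to 9.08. The model gives deep and shallow libraries 1 spread, so this SE may understate the counting error. The fall did not pass without WT replicate 1 (adjusted p = 0.078) or 2 (0.058) or on the deposited scale (-0.61, adjusted p = 0.076).

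The row of SSA3 and AAR2 (SSA3 is YBL075C, on chromosome II, 84499 to 86448, minus strand) held 27.9 and 28.5 scaled CPM in WT, 20.8 and 22.2 in the mutant, and 93.7 and 79.8 with rapamycin. It rose by 1.58 with rapamycin (SE 0.14, adjusted p = 1e-04). In the mutant its log2 fold change was -0.38 (SE 0.14, adjusted p = 0.056), and 0.04 on the deposited scale. It passed in the mutant with only rows of at least 1 CPM in all 6 samples (adjusted p = 0.045) and without mutant replicate 2 (-0.42, adjusted p = 0.037).

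**Figure D1:**
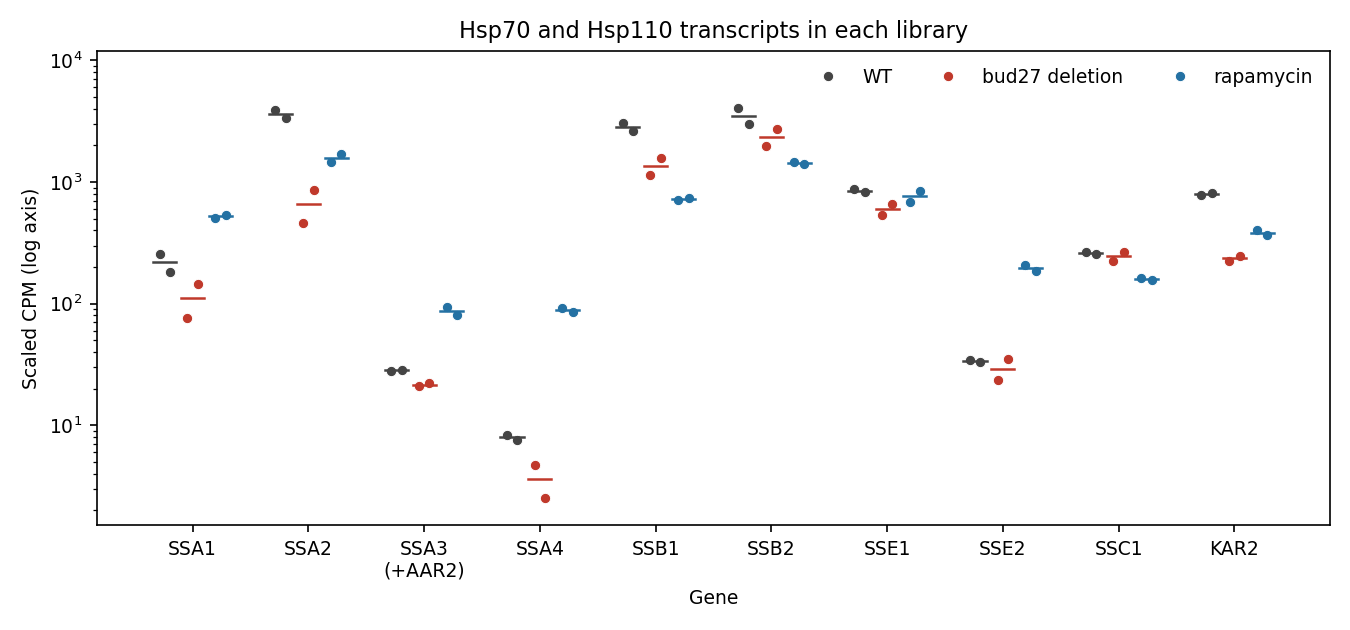
Level of each member in each of the 6 libraries, in scaled CPM on a log axis. Points are libraries, lines are group means (n = 2), and the SSA3 row also holds AAR2; SSA4 stands at 91.7 and 85.0 with rapamycin against 8.34 and 7.53 in WT, while SSA2 is lowest in the mutant at 460 and 857.

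Upstream sequences are shown only for those members with large differences that hold letters known as binding motifs of stress regulators. Searched on both strands of the 500 bases before each start codon, the heat shock element (GAA, then NN, TTC, NN and GAA, where N is any base, or its reverse complement, which starts and ends with TTC) was found upstream of 4 of the 10 members, SSA1, SSA2, SSE1 and KAR2, against 1.48% of 6000 protein-coding genes. The stress response element AGGGG (reverse complement CCCCT) was found upstream of 4, SSA1, SSA4, SSE2 and SSC1, against 34.1%. The letters CAGCGTG, the core of the unfolded protein response element, were found upstream of KAR2, against 2.32%. Only these exact patterns were counted. Inverted GAA repeats that are shorter or spaced otherwise, as in the SSA4 and SSE2 stretches below, did not count as a heat shock element. A gene without a match may therefore still hold such repeats. In the stretches that follow, read 5′ to 3′ towards the gene, capitals mark these matches.
SSA1 (chrI:141547-141835, minus strand): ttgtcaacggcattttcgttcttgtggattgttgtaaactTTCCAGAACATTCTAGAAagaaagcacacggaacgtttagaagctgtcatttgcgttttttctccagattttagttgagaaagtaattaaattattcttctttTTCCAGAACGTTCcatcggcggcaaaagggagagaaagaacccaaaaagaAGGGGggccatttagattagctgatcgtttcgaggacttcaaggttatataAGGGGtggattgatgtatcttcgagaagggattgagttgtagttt
SSA2 (chrXII:97666-97758, minus strand): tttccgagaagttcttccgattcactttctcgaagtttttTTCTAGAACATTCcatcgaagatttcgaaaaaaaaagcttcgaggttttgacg
SSA4 (chrV:364119-364417, plus strand): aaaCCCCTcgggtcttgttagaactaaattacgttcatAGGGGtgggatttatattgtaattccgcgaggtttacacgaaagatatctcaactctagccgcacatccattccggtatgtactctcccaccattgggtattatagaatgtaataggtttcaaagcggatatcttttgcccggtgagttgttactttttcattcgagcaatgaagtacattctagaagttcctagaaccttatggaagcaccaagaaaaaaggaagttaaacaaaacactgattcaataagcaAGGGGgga
SSE2 (chrII:576178-576262, minus strand): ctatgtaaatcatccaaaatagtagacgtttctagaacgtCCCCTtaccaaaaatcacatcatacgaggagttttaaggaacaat
KAR2 (chrX:381082-381213, plus strand): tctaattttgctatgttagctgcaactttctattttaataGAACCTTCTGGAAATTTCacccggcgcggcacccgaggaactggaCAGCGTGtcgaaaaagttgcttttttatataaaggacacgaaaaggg
The first capital run of SSA1, which begins 364 bases before the start codon, and that of KAR2, at 205 bases, each join a pair of overlapping heat shock elements, and SSA1 has a further one at 261 bases. SSA2 has 1, at 233 bases. SSA4 has stress response elements at 467, 432 and 179 bases, SSA1 at 211 and 160, and SSE2 at 226. With rapamycin 24.4% of all rows rose and 21.5% fell. Of the 4 genes with a stress response match 3 rose and SSC1 fell. Of the 4 with a heat shock match SSA1 rose, SSA2 and KAR2 fell and SSE1 did not pass. On the deposited scale the falls of SSC1 (-0.09, limma adjusted p = 0.49) and SSA2 (-0.60, adjusted p = 0.051) did not pass, and SSE1 rose (0.44, adjusted p = 0.027). How all rows with these letters changed was not counted, and a link between letters and response was not tested. SSA3, whose row rose, has no match to the heat shock or stress response letters in this window.

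SSB1 and SSB2, the ribosome-bound Hsp70 genes, were among the most abundant members in WT and fell with rapamycin. SSB1 (YDL229W, chromosome IV, 44065 to 45906, plus strand) went from 3040 and 2620 scaled CPM in WT to 1140 and 1580 in the mutant and to 706 and 741 with rapamycin. The groups did not overlap, with rapamycin lowest. SSB1 fell by 1.97 with rapamycin (SE 0.20, adjusted p = 0.00021) and by 1.08 in the mutant (SE 0.20, adjusted p = 0.0041). SSB2 (YNL209W, chromosome XIV, 252059 to 253900, plus strand) had 4050 and 2970 in WT, 1990 and 2720 in the mutant, and 1470 and 1400 with rapamycin. It fell by 1.27 with rapamycin (SE 0.24, adjusted p = 0.0032), and its log2 fold change in the mutant was -0.58 (SE 0.24, adjusted p = 0.078). DESeq2 on the recovered reads called that change (adjusted p = 0.025), as did the fit without mutant replicate 2 (adjusted p = 0.017). For both genes the mutant lay above rapamycin, by 0.89 for SSB1 (SE 0.20, adjusted p = 0.0072) and 0.70 for SSB2 (SE 0.24, adjusted p = 0.037). The SSB2 difference did not pass without either WT sample, without mutant replicate 2 or without either rapamycin sample (adjusted p from 0.055 to 0.15), nor with the replicate number as a block (0.062) or only these 2 groups fitted (0.052).

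The sum of near-identical copies does not depend on how shared reads were split between them, though it would on whether such reads were kept. With SSA1 and SSA2 summed to 1 row, the sum fell by 2.39 in the mutant (SE 0.29, adjusted p = 0.00052) and by 0.88 with rapamycin (SE 0.29, adjusted p = 0.038). The latter lost its call on the deposited scale (-0.27, adjusted p = 0.33) and without any 1 of the WT or rapamycin samples (adjusted p from 0.07 to 0.2). With SSB1 and SSB2 summed, the sum fell by 1.54 with rapamycin (SE 0.24, adjusted p = 0.0014). In the mutant it fell by 0.78 (SE 0.24, adjusted p = 0.03), a call lost on the deposited scale (-0.34, adjusted p = 0.14) and without either WT sample (adjusted p = 0.19 and 0.077), mutant replicate 1 (0.067) or either rapamycin sample (0.076 and 0.074).

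Of the Hsp110 genes, SSE2 rose with rapamycin, while the change of SSE1 did not pass the test; the difference between the genes was not tested. SSE2 (YBR169C, chromosome II, 573915 to 575996, minus strand) stood at 34.5 and 33.1 scaled CPM in WT, at 23.6 and 34.7 in the mutant, and at 208 and 184 with rapamycin. Both rapamycin samples were above every other sample, while the mutant and WT samples overlapped. SSE2 rose by 2.50 with rapamycin (SE 0.19, adjusted p = 4.8e-05), 5.81 times the WT mean, and its log2 fold change in the mutant was -0.23 (SE 0.19, adjusted p = 0.33), which turned to 0.19 on the deposited scale. Without mutant replicate 2 that difference was -0.50 (adjusted p = 0.014). SSE1 (YPL106C, chromosome XVI, 350194 to 352275, minus strand), the major Hsp110 gene, had 868 and 827 in WT, 535 and 662 in the mutant and 682 and 840 with rapamycin. In the mutant SSE1 fell by 0.51 (SE 0.18, adjusted p = 0.045), a call lost under 11 of the 17 other settings, among them the deposited scale (-0.07, adjusted p = 0.69) and edgeR on the recovered reads (-0.50, adjusted p = 0.052). With rapamycin its log2 fold change was -0.16 (SE 0.18, adjusted p = 0.48) on the TMM scale and 0.44 (adjusted p = 0.027) on the deposited one, so its direction depends on the scaling.

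KAR2 and SSC1, of the ER and the mitochondrion, fell with rapamycin, and KAR2 also fell in the mutant. KAR2 (YJL034W, chromosome X, 381327 to 383375, plus strand) had 786 and 808 scaled CPM in WT, 226 and 247 in the mutant and 402 and 367 with rapamycin. The 3 groups did not overlap, and samples of a group lay close together. KAR2 fell by 1.75 in the mutant (SE 0.14, adjusted p = 6.9e-05), a mean 3.36 times lower than in WT. Its log2 fold change with rapamycin was -1.05 (SE 0.14, adjusted p = 0.00058). SSC1 (YJR045C, chromosome X, 519638 to 521602, minus strand) had 264 and 254 in WT, 224 and 263 in the mutant and 162 and 156 with rapamycin. Its fall with rapamycin was 0.70 on the log2 scale (SE 0.13, adjusted p = 0.0038) but did not pass on the deposited scale (-0.09, adjusted p = 0.49). In the mutant its log2 fold change was -0.09 (SE 0.13, adjusted p = 0.59) and turned to 0.34 (adjusted p = 0.032) on the deposited scale.

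Counted over the family, 6 of 10 members fell in the mutant, where 47.2% of all rows passed, 25.5% lower and 21.7% higher. No member had a positive fold change on the TMM scale with all samples; SSA3, SSE2 and SSC1 turned positive on the deposited scale, and SSE2 (0.08) and SSC1 (0.06) also without mutant replicate 1. In scaled CPM the WT and mutant samples did not overlap for 8 members, against 73.6% of all rows. In deposited CPM those of SSA1, SSA3, SSB2 and SSE1 overlapped as well, while those of SSC1 no longer did. The share of all rows was not counted on that scale. The median log2 fold change of all 10 members was -0.78 against -0.02 for all rows. On the deposited scale 3 fell (SSA2, SSB1 and KAR2) and SSC1 rose, where 13.3% of all rows fell and 42.5% rose, with a median of -0.36 against 0.38. Without WT replicate 1, and likewise without WT replicate 2, only SSA2, SSB1 and KAR2 passed. With rapamycin 4 members rose and 5 fell, where 45.9% of all rows passed, 24.4% higher and 21.5% lower. The samples did not overlap for 9 members, against 80.4% of all rows. The median of the members was -0.43 against 0.05 for all rows, and on the deposited scale it was 0.17 against 0.60, so its sign turned, with 5 members higher and 3 lower, where 54.7% of all rows were higher and 8.18% lower. Both comparisons use the same WT samples. Set directly against rapamycin, the mutant had 3 members higher (SSB1, SSB2 and SSC1) and 6 lower, where 55.1% of all rows passed, 25.6% higher and 29.4% lower. The samples did not overlap for any of the 10, against 78.6% of all rows. SSA4 differed most, by -4.31 (SE 0.23, adjusted p = 6.1e-06), followed by SSE2 at -2.73 (SE 0.19, adjusted p = 1.7e-05), SSA1 at -2.29 (SE 0.29, adjusted p = 0.00039) and the SSA3 row at -1.96 (SE 0.14, adjusted p = 2.2e-05). SSA2 stood at -1.32 (SE 0.29, adjusted p = 0.0053), KAR2 at -0.69 (SE 0.14, adjusted p = 0.0034) and SSC1 at 0.61 (SE 0.13, adjusted p = 0.0061). The KAR2 difference did not pass without rapamycin replicate 1 (adjusted p = 0.05), nor did that of SSC1 without rapamycin replicate 2 (adjusted p = 0.051). SSE1 differed by -0.35 (SE 0.18, adjusted p = 0.13), and by -0.52 on the deposited scale (adjusted p = 0.017).

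**Figure D2:**
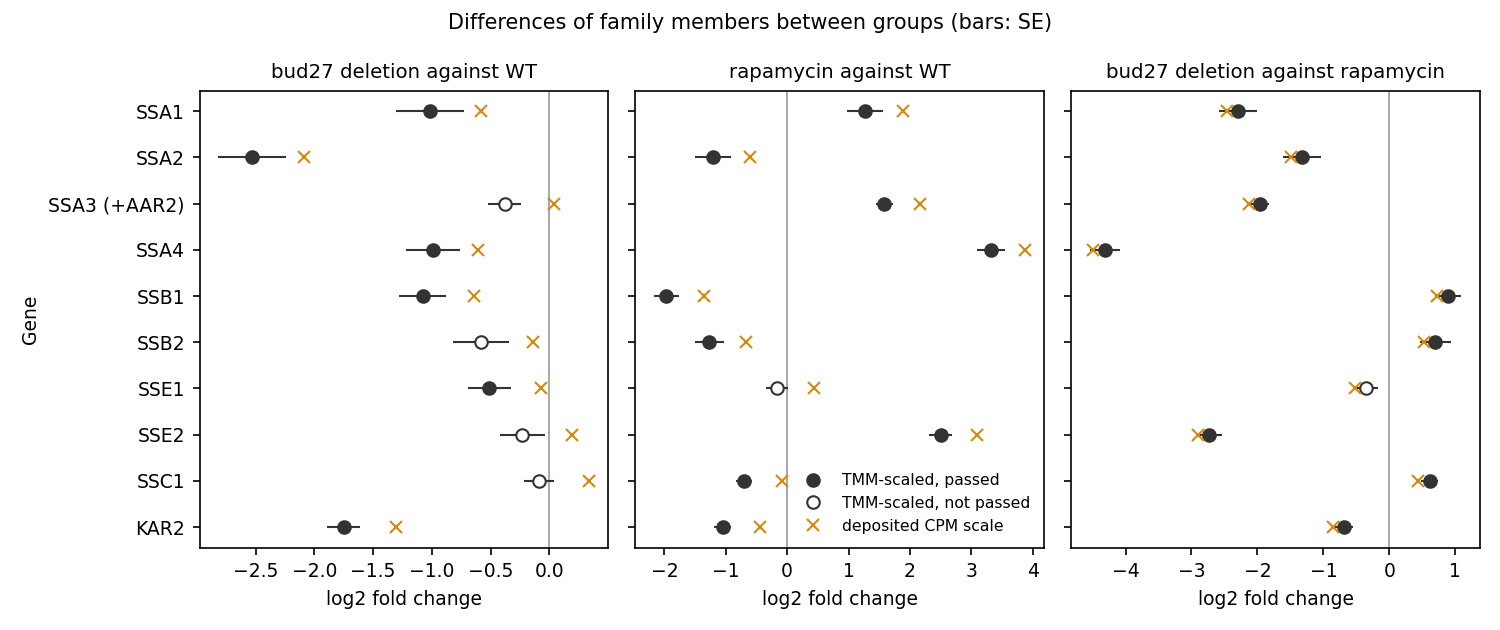
Log2 fold changes of the 10 members in the 3 comparisons, with SE bars; filled circles passed the limma test on TMM-scaled values, open circles did not, and crosses give the same fold change on the deposited CPM scale. Crosses lie to the right of the circles in both comparisons with WT, and for SSE1 with rapamycin and for SSA3, SSE2 and SSC1 in the mutant they lie on the other side of 0.

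Shares of reads among like members do not depend on the scaling between libraries. They can depend on how reads shared by near-identical copies were counted, which is not given. The SSA reads include the row that SSA3 shares with AAR2. Of the reads of SSA1 to SSA4, SSA2 held 93.0% and 94.0% in WT, 81.9% and 83.4% in the mutant and 67.8% and 70.7% with rapamycin. SSA1 held 6.12% and 5.02% in WT, 13.6% and 14.2% in the mutant, and 23.5% and 22.4% with rapamycin. The groups did not overlap for either gene, with the mutant between WT and rapamycin. SSA4 held 0.200% and 0.209% in WT, 4.26% and 3.56% with rapamycin, and 0.840% and 0.246% in the mutant (exact 95% binomial intervals for the mutant 0.490% to 1.34% and 0.131% to 0.421%). Within the Hsp110 pair the share of SSE2 was 3.82% and 3.84% in WT, 4.22% and 4.97% in the mutant and 23.4% and 18.0% with rapamycin. SSB1 held 42.9% and 46.9% of the SSB reads in WT, 36.4% and 36.8% in the mutant and 32.4% and 34.7% with rapamycin. With 2 samples against 2 no exact permutation test of a share can reach 0.05, so these shares are a description. The 4 SSA genes together made up 0.426% and 0.406% of all gene reads in WT, 0.0971% and 0.152% in the mutant and 0.351% and 0.391% with rapamycin. All 10 members made up 1.35% and 1.25% in WT, 0.813% and 0.968% in the mutant, and 0.944% and 0.994% with rapamycin.

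**Figure D3:**
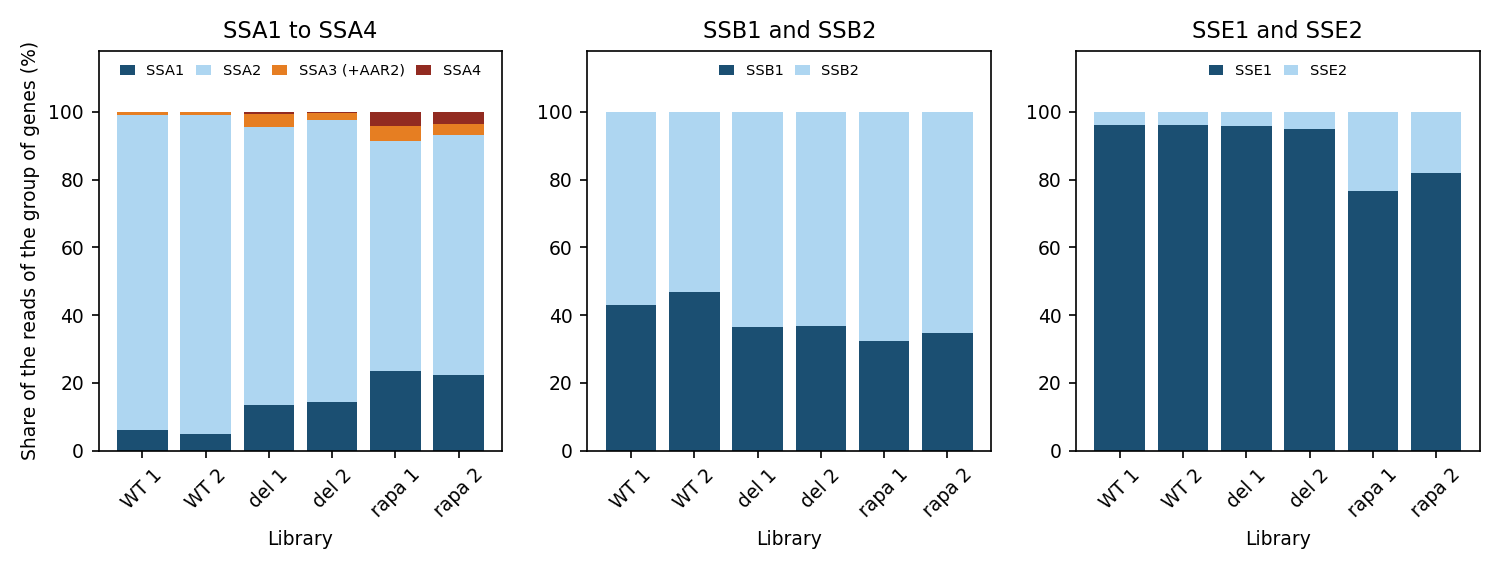
Share of reads, in percent, that each gene held within the SSA, SSB and Hsp110 genes in each library (del, bud27 deletion; rapa, rapamycin); the stacked colours of a bar add up to 100%. SSA1 grows from 6.12% and 5.02% in WT to 23.5% and 22.4% with rapamycin, and SSE2 from 3.82% and 3.84% to 23.4% and 18.0%.

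The partners of the family were followed in lists given by name, and some genes stand in more than 1 list. Of 23 J-domain genes 5 rose and 4 fell in the mutant (median 0.18, and 0.57 on the deposited scale), against 21.7% and 25.5% of all rows. With rapamycin 7 rose and 5 fell (median -0.07, and 0.44 on the deposited scale), against 24.4% and 21.5%. ZUO1, the ribosome-associated J protein that works with Ssb, fell by 1.30 in the mutant (SE 0.21, adjusted p = 0.0019), and YDJ1, the main cytosolic partner of Ssa, fell by 0.89 (SE 0.14, adjusted p = 0.0017). APJ1, a cytosolic and nuclear J protein, rose by 0.83 in the mutant (SE 0.13, adjusted p = 0.002) and by 1.23 with rapamycin (SE 0.13, adjusted p = 0.00025). SIS1, an essential J protein that works with Ssa, went from 76.6 and 82.6 scaled CPM in WT to 150 and 156 with rapamycin, a rise of 0.93 (SE 0.12, adjusted p = 0.00059), and had 76.0 and 78.9 in the mutant. On the deposited scale 12 J-domain genes rose and 3 fell in the mutant, against 42.5% and 13.3% of all rows, and 11 rose and none fell with rapamycin, against 54.7% and 8.18%. Without mutant replicate 1, and likewise without replicate 2, 14 passed in the mutant, and with rapamycin 5 passed without WT replicate 1, WT replicate 2 or rapamycin replicate 1 and 6 without rapamycin replicate 2.

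Of the 5 nascent-chain partners of Ssb, 3 fell in the mutant, where 25.5% of all rows fell, ZUO1 and EGD2 among them, and 2 fell with rapamycin, where 21.5% did. The third in the mutant, BTT1, named after its value was seen, rested on 7 and 10 reads. The median of the list in the mutant was -0.90, and -0.46 on the deposited scale. EGD2, of the nascent polypeptide-associated complex, fell by 0.90 in the mutant (SE 0.16, adjusted p = 0.0029) and by 1.03 with rapamycin (SE 0.16, adjusted p = 0.0012). SSZ1, the atypical Hsp70 that forms a complex with Zuo1, fell by 0.77 with rapamycin (SE 0.14, adjusted p = 0.0031), but not on the deposited scale (-0.16, adjusted p = 0.34), and stood at 0.11 in the mutant (SE 0.14, adjusted p = 0.54). Against rapamycin the mutant had SSZ1 higher by 0.88 (SE 0.14, adjusted p = 0.0013) and ZUO1 at -1.03 (SE 0.21, adjusted p = 0.0038). Of 4 other Hsp70-type genes, SSZ1 included, SSZ1 alone passed with rapamycin and SSQ1, a mitochondrial Hsp70 named after its value was seen, alone in the mutant (0.50, SE 0.16, adjusted p = 0.033), where 45.9% and 47.2% of all rows passed. Without either WT or either rapamycin sample none of the 4 passed in the mutant, nor by DESeq2, and without mutant replicate 1 it was 2. Of the 5 nucleotide exchange factors other than Sse1 and Sse2, none passed in the mutant by limma, edgeR or DESeq2. By limma 47.2% of all rows passed. An unadjusted limma p below 0.05 was reached by 1 of the 5, and the number passing rose when either mutant sample was left out. With rapamycin 2 of these 5 fell, against 21.5% of all rows, among them MGE1, the exchange factor of Ssc1, at -1.08 (SE 0.27, adjusted p = 0.013). That call was lost on the deposited scale (-0.48, adjusted p = 0.1) and without either WT sample (adjusted p = 0.081 and 0.097), and 1 of the 5 then passed. The other, SIL1, an exchange factor of Kar2 named after its value was seen, stood at -1.02 (SE 0.17, adjusted p = 0.0018).

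Of 16 ER partners of Kar2 and unfolded protein response genes, 2 rose and 4 fell in the mutant (median -0.19, and 0.22 on the deposited scale), against 21.7% and 25.5% of all rows. With rapamycin 3 rose and 4 fell (median -0.02, and 0.54), against 24.4% and 21.5%. PDI1, protein disulfide isomerase, whose row also holds YCL041C, fell by 0.91 in the mutant (SE 0.15, adjusted p = 0.0019), and ROT1, an ER membrane protein, rose by 0.79 (SE 0.15, adjusted p = 0.0039). EUG1, another disulfide isomerase, fell by 0.68 (SE 0.16, adjusted p = 0.01), but not on the deposited scale (-0.26, adjusted p = 0.26) or without WT replicate 1 (adjusted p = 0.079). With rapamycin SCJ1, a J protein of the ER lumen, fell by 0.77 (SE 0.16, adjusted p = 0.0048), but not on the deposited scale (-0.18, adjusted p = 0.37). IRE1, the ER stress sensor, rose by 0.77 (SE 0.17, adjusted p = 0.0075) and CNE1, the calnexin homologue, by 0.61 (SE 0.16, adjusted p = 0.014). IRE1 no longer passed without WT replicate 2 (adjusted p = 0.065) or rapamycin replicate 1 (0.051), nor did CNE1 without WT replicate 2 (0.097) or either rapamycin sample (0.083 and 0.064). Against rapamycin the mutant had IRE1 at -1.26 (SE 0.17), ERO1, the ER oxidase, at -0.91 (SE 0.13) and SEC63, the translocon J protein, at 0.87 (SE 0.14). The number of the 16 that passed was 2 in the mutant without WT replicate 1, and with rapamycin 2 without WT replicate 2 or rapamycin replicate 1 and 3 without rapamycin replicate 2.

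Of 12 mitochondrial partners of Ssc1 tested, 5 rose and 2 fell in the mutant (median 0.13, and 0.53 on the deposited scale), against 21.7% and 25.5% of all rows. With rapamycin 3 rose and 4 fell (median -0.08, and 0.43 on the deposited scale), against 24.4% and 21.5%. HSP78, a matrix disaggregase that works with Ssc1, had 27.4 and 30.1 scaled CPM in WT, against 91.5 and 109 in the mutant and 169 and 157 with rapamycin. It rose by 1.77 in the mutant (SE 0.14, adjusted p = 7.6e-05) and by 2.46 with rapamycin (SE 0.14, adjusted p = 1.4e-05). In the mutant HSP60, the matrix chaperonin, fell by 1.21 (SE 0.16, adjusted p = 0.00085), and ZIM17, which keeps Ssc1 soluble, rose by 0.99 (SE 0.17, adjusted p = 0.0028). PAM18, the J protein of the import motor, fell by 0.82 with rapamycin (SE 0.21, adjusted p = 0.014), a call lost on the deposited scale (-0.24, adjusted p = 0.41) and without WT replicate 1 (0.084), WT replicate 2 (0.089) or rapamycin replicate 1 (0.052). Against rapamycin the mutant had PAM18 at 1.53 (SE 0.21), its partner PAM16 at 0.93 (SE 0.14) and HSP60 at -0.71 (SE 0.16), the last lost without rapamycin replicate 1 (adjusted p = 0.075). MDJ2, a J protein of the mitochondrial inner membrane whose row is joined with a neighbour, stands in the J-domain list only. In the mutant against rapamycin MDJ2 stood at -1.0 (SE 0.22). The number of the 12 that passed was 4 in the mutant without WT replicate 1, and with rapamycin 2 without either WT sample and 4 without rapamycin replicate 1.

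Of 18 genes known to depend on Hsf1 outside the family, 9 rose and 3 fell with rapamycin, where 24.4% of all rows rose and 21.5% fell, with a median of 0.49 against 0.05 for all rows. In the mutant 3 rose and 5 fell (median 0.01 against -0.02), where 21.7% of all rows rose and 25.5% fell. HSP104, the cytosolic disaggregase that acts with Ssa, stood at 119 and 102 scaled CPM in WT, at 440 and 541 with rapamycin and at 56.9 and 74.0 in the mutant. It rose by 2.14 with rapamycin (SE 0.18, adjusted p = 7.6e-05), and HSP42, a small heat shock protein, rose by 1.74 (SE 0.13, adjusted p = 4.9e-05). HSC82, the constitutive Hsp90 gene, fell by 1.56 in the mutant (SE 0.18, adjusted p = 0.00041), with HSP82 as a close copy that makes its reads uncertain. Against rapamycin the mutant had 10 of the 18 lower and none higher, where 29.4% and 25.6% of all rows were, with HSP104 at -2.89 (SE 0.18), HSP42 at -1.65 (SE 0.13) and HSP82 at -1.15 (SE 0.15). On the deposited scale 10 of the 18 rose and 3 fell in the mutant, against 42.5% and 13.3% of all rows, and 14 rose and none fell with rapamycin, against 54.7% and 8.18%. Without WT replicate 1, 7 passed with rapamycin.

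**Figure D4:**
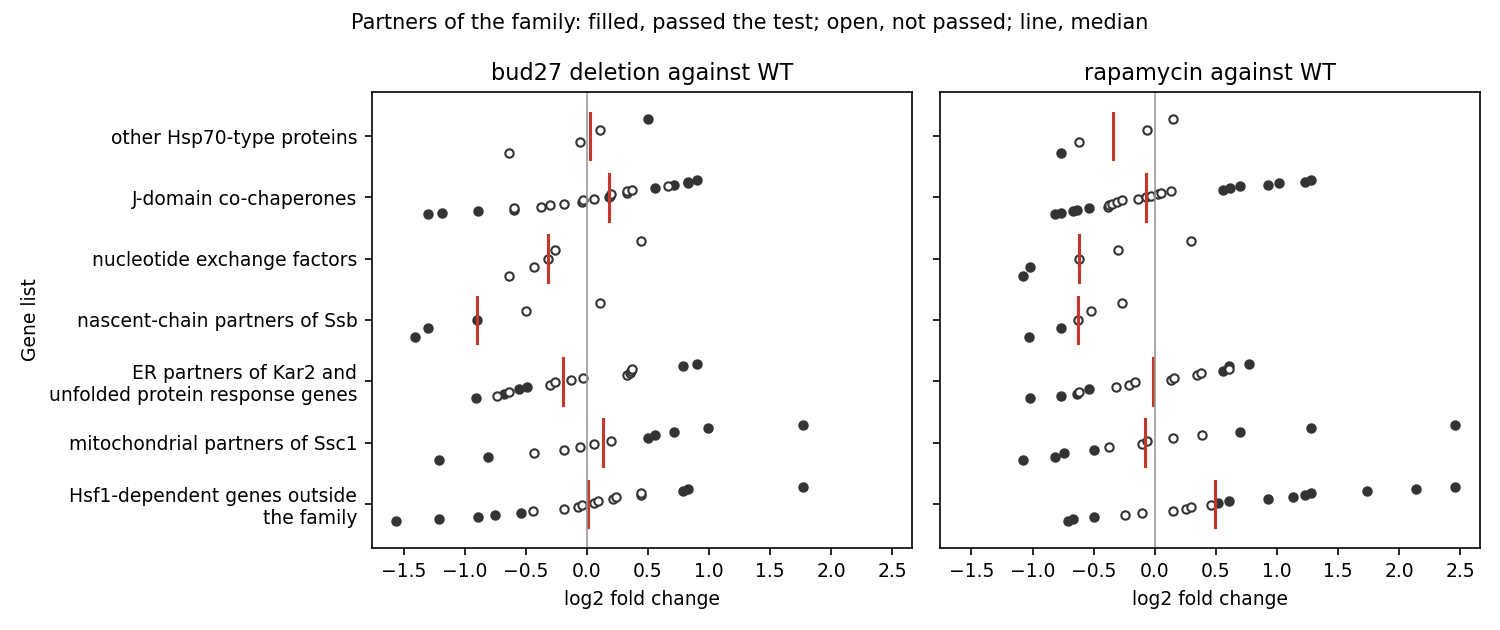
Log2 fold changes of the partner genes against WT, on the TMM scale, in the mutant (left) and with rapamycin (right), by list; each circle is a gene row, filled where it passed the limma test, and the red line is the median of the list. The list of Hsf1-dependent genes has its median at 0.01 in the mutant and at 0.49 with rapamycin.

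Patterns over the 6 libraries were compared between each member and 2953 other single-gene rows with a mean of at least 20 CPM, as the Euclidean distance of log2 levels centred on WT. The ribosomal protein gene RPS6A was nearest to SSB1 (distance 0.20), followed by RPS22A (0.23) and FUR1 (0.28). RPS6B was nearest to SSB2 (0.15), followed by EFM4 (0.20) and RPS18B (0.24); RPS6A and RPS6B are themselves near-identical copies. TPI1 (0.51), VRG4 (0.53) and SNQ2 (0.54) were nearest to SSA2, and GDA1 (0.28), CHO1 (0.31) and EMP70 (0.38) to KAR2. SSA4 had no row closer than 1.15 (NCA3), followed by DAL2 (1.17) and MET28 (1.18). Its mutant values rest on 17 and 13 reads, so counting error enters these distances, and rows with a mean below 20 CPM were not compared. DCS2 (0.41), SHH4 (0.42) and GDH2 (0.48) were nearest to SSE2, and SAF1 (0.36), EEB1 (0.38) and SDH4 (0.40) to SSA1. The row of SSA3 and AAR2 was nearest to NOP19 (0.26), SDS24 (0.29) and ATG36 (0.33), SSE1 to YND1 (0.20), with CHP1 at 0.22, and SSC1 to SVS1 (0.12), TYW3 (0.14) and PDC1 (0.17). Within the family the closest genes were SSE1 and SSC1 at 0.99 and SSB2 and SSC1 at 1.11, and SSB1 and SSB2 lay 1.22 apart, SSA1 and SSA3 1.24, and SSA2 and KAR2 1.28.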

How the data were processed

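The deposited table holds CPM for 7247 rows, of which 5475 are genes, 925 CUTs and 847 SUTs, with 1 column per sample. Per the submitters' processing notes FastQC, HISAT2, DESeq, DESeq2 and build R64 were used, without versions; the sources used here give no counting tool, annotation, strand setting or handling of multi-mapped reads. Dividing each column by what 1 read is worth gave whole numbers for 100% of entries (tolerance 0.01 reads), and these served as recovered read counts of the deposited table. A value of 0 allows up to 3 reads, 0.104 CPM in the deepest and 0.934 CPM in the shallowest library; floors and intervals cover counting error only. Reads outside the listed rows were 18.8% to 31.2% of the totals.

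Gene rows passing edgeR's filter by group (minimum count 10) were kept, which left 5279. CPM were divided by TMM factors (edgeR 4.0.16; WT 0.767 and 0.805, deletion 1.12 and 1.01, rapamycin 1.19 and 1.20) and log2(value + 1) was fitted in R 4.3.3 by limma 3.58.1, its trend option on, with 3 residual degrees of freedom, all groups in 1 model. Adjusted p follows Benjamini and Hochberg over all rows tested. Alternatives were scalings, filters, pseudocounts, edgeR and DESeq2 1.42.0 on the recovered reads, a replicate block and leaving out each sample. Members and lists were chosen with earlier results of these data known. Named genes are all members, BUD27, for each list the 3 called rows with the largest changes among those with a mean of at least 20 CPM, and up to 3 rows nearest to each member; FRS2, TRP1, HSF1, MSN2 and MSN4 were added. Sequences were read from the RefSeq R64 genome.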

Additional observations from a re-analysis of the deposited data

How the results depend on the processing

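On the deposited CPM scale SSA3 (0.04), SSE2 (0.19) and SSC1 (0.34) in the mutant and SSE1 with rapamycin (0.44) changed direction, the summed SSB1 and SSB2 stood at -0.34 in the mutant and the summed SSA1 and SSA2 at -0.27 with rapamycin, neither passing the test. In the mutant 2245 gene rows were then higher and 704 lower against 1147 and 1345, with rapamycin 2886 and 432 against 1286 and 1135. The summed SSA1 and SSA2 with rapamycin also missed the threshold without a filter (-0.85). The summed SSB1 and SSB2 missed it in the mutant (-0.75) and against rapamycin (0.77) when only the groups compared were fitted. With 1 sample left out the lone sample is assumed to vary like the other groups. Then 1434 to 3028 gene rows and 3 to 9 members passed in the mutant, and 1588 to 3062 gene rows with rapamycin, against 2492, 6 and 2421. The summed SSB1 and SSB2 ranged from -1.01 to -0.51 in the mutant and from 0.53 to 1.01 against rapamycin, and the summed SSA1 and SSA2 from -0.98 to -0.77 with rapamycin. In the mutant SSE2 ranged from -0.50 to 0.08 and SSC1 from -0.21 to 0.06, both highest without mutant replicate 1, and with rapamycin SSE1 ranged from -0.29 to 0.01, highest without rapamycin replicate 1. MSN2 with rapamycin, 0.05, was 0.00 with upper quartile factors and ranged from -0.13 to 0.27 with 1 sample left out, at -0.09 without WT replicate 2 and -0.13 without rapamycin replicate 2. The cause of these changes was not tested. Same-numbered samples did not deviate together (correlations of their deviations -0.10 to 0.04 over 5279 rows), so the numbers were not taken as pairs; with the replicate number as a block 2377, 2320 and 2808 gene rows passed in the mutant, with rapamycin and between them, against 2492, 2421 and 2908, and the summed SSB1 and SSB2 missed the threshold in the mutant (-0.78) and against rapamycin (0.76). On the recovered reads edgeR called 2456, 2657 and 2911 rows and DESeq2 2361, 2501 and 2807. In all, 464 of 510 values of single members kept their direction and side of the threshold. Among the members, depth limits SSA4 in the mutant most, with 17 and 13 reads.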

Other observations

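The transcripts of regulators that act on these genes were also measured, while the activity of these regulators was not. MSN4, one of the stress factors that bind the stress response element, stood at 4.41 and 4.38 scaled CPM in WT. It had 1.66 and 3.31 in the mutant, resting on 6 and 17 reads, and 14.8 and 19.3 with rapamycin. MSN4 rose by 1.73 with rapamycin (SE 0.26, limma adjusted p = 0.0011). In the mutant its log2 fold change was -0.67 (SE 0.26, adjusted p = 0.062), which was -0.29 (adjusted p = 0.25) without mutant replicate 1 and passed at -1.02 (0.0055) without replicate 2 and with the replicate block (0.043). MSN2 had 21.6 and 17.7 scaled CPM in WT, 12.5 and 9.54 in the mutant and 17.5 and 23.5 with rapamycin. It fell in the mutant by 0.79 (SE 0.21, adjusted p = 0.016), though not without either WT sample (adjusted p = 0.12 and 0.053) or on the deposited scale (-0.38, adjusted p = 0.19). HSF1 had 9.36 and 8.42 scaled CPM in WT, 34.1 and 13.8 in the mutant and 16.7 and 17.8 with rapamycin. The mutant samples lay above both WT samples but far apart from each other. HSF1 rose by 1.21 in the mutant (SE 0.35, adjusted p = 0.022), a call lost without WT replicate 1 (adjusted p = 0.11) or 2 (0.14), and a value of 0.62 without mutant replicate 1 and 1.83 without replicate 2. With rapamycin its log2 fold change was 0.88 (SE 0.35, adjusted p = 0.07), and edgeR (adjusted p = 0.029) and DESeq2 (0.025) on the recovered reads called it, as did limma on the deposited scale (1.44, adjusted p = 0.01), with the replicate block (0.049), with only these 2 groups (0.002) and without mutant replicate 1 (0.001) or 2 (0.00095).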
